A study of Arabidopsis thaliana with 10 samples.

Results

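The comparison of heat at 3 h with the untreated control set 2 poly(A)- RNA libraries of Arabidopsis thaliana side by side, out of 10 samples in the series, over the 1362 long noncoding RNA (lncRNA) loci that carry an expression value. The members were taken from the labels alone: the library of seedlings kept at 37 °C for 3 h, and the library of untreated seedlings collected at 3 h. The loci were 384 annotated in the genome and 978 predicted by the study, of which 358 stand in its level 1 and 620 in its level 2. Both libraries came from 12-day-old Col-0 seedlings grown on plates, and in both the RNA had polyadenylated molecules removed and ribosomal RNA depleted before strand-specific, single-end sequencing of 100 nt reads. Each condition was 1 library, so no difference below has a replicate check and no p-value can be given. The other 7 seedling libraries (heat for 12 h; cold, salt and drought for 3 h and 12 h) are used only to place these values. The control was taken at 3 h only, and the tables hold lncRNAs and no coding genes, so the heat treatment could not be checked against heat shock protein genes here.

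lncRNAs are transcripts without a long open reading frame. Many in plants are antisense transcripts, copied from the strand opposite a coding gene, and others are hosts of small nucleolar RNAs (snoRNAs) or precursors of small RNAs. At high temperature plants switch on heat shock factors, which bind paired GAA units (the heat shock element) in promoters and raise chaperone genes, while much other transcription is reduced and some silent repeats become active. RNA without a poly(A) tail includes such hosts and precursors, unfinished transcripts and other RNA that standard mRNA libraries leave out.

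At 3 h of heat the largest increase on the log2 scale used here was an RNA opposite CLV1 that had no read in the other 8 seedling libraries. It rests on 16 reads over exons shorter than a read. The lncRNA with the most reads among those higher was AT1G76878, at 1885 reads against 451. The largest decreases were a GA-repeat locus, level1_lnc-169, from 485 reads to 0, and level2_lnc-18, from 169 to 2. A locus is called higher or lower here where log2(RPKM + 1) differed by at least 1, which is 2-fold; RPKM scales the reads of a locus by its exon length and by how many reads of that library were mapped. In whole seedlings, fewer cells of a type and less RNA per cell cannot be told apart. By this rule 16 loci were higher (1.17% of 1362) and 18 lower (1.32%). The 18 lower loci hold 8 annotated and 10 predicted loci, and the 16 higher ones 2 annotated and 14 predicted. As few reads lie behind most loci, the ratio of RPKM was also given a 95% interval from the reads, which covers counting error of these libraries only. That interval lay above 1 at 67 loci (4.92%) and below 1 at 40 (2.94%). Of the loci past 2-fold, 15 of the 16 higher and 18 of the 18 lower also had an interval that left out 1.

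Several sequences carry these results. The first is the transcribed span of level2_lnc-154, the RNA opposite CLV1, with its exons in capitals, so that the short exons and the intron between them, beginning in gt and ending in ag on its own strand, can be seen. The next ones, in small letters, are the spans of level1_lnc-294, read in the heat library at 3 h alone, and level1_lnc-344, read there and by 1 read in cold. The span of level1_lnc-169 follows, with its longest run of alternating G and A in capitals. The last is the window from 250 bases before to 50 after the start of level1_lnc-320, whose capitals mark a pair of GAA units facing each other. All are written 5′ to 3′ on the strand of the lncRNA and were read from the RefSeq copy of the genome (TAIR10.1), whose chromosomes 1 to 5 fit the deposited TAIR10 coordinates.
level2_lnc-154, chr1:28466065-28466271, plus strand: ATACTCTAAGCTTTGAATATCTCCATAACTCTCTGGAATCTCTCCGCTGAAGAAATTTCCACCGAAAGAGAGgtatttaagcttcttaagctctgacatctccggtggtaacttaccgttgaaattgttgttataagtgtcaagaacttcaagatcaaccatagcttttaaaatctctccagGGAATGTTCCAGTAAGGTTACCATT
level1_lnc-294, chr5:14118678-14118898, plus strand: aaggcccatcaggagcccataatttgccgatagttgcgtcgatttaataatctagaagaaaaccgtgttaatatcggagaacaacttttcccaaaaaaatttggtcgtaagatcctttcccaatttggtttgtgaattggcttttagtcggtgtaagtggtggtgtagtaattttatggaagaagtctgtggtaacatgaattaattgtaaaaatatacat
level1_lnc-344, chr5:24170376-24170580, minus strand: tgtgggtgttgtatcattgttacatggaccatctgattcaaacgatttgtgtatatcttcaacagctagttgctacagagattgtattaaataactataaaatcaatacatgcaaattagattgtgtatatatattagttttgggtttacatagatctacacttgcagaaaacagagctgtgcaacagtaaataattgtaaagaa
level1_lnc-169, chr3:12670276-12670499, plus strand: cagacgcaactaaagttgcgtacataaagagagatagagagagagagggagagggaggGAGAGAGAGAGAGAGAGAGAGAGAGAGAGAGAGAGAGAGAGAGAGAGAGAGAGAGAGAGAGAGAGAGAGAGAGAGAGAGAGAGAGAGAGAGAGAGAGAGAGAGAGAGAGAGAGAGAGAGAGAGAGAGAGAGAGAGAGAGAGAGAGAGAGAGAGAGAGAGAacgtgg
level1_lnc-320 start window, chr5:19645315-19645614, minus strand: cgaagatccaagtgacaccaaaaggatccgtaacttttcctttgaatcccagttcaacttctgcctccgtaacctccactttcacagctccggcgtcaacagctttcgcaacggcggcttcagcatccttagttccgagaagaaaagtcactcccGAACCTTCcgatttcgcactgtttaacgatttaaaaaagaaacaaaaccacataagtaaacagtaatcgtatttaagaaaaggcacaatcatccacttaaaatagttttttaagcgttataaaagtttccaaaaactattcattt

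The control library held 25.2 M mapped reads and the heat library 37.0 M, of which 11904 and 17915 lay on lncRNAs. A single annotated RNA, AT1G15405, took 44.0% of the lncRNA reads of the control (5235) and 45.7% of those of the heat library (8192); its ratio was 1.06 (1.03 to 1.10). Reads were found at 284 loci in the control and at 458 in the heat library: 212 in both, 72 in the control only and 246 in the heat library only. The 246 include 180 loci with 1 to 3 reads, and the heat library is the deeper one; the part of depth in this difference was not tested. Over the 59 loci with at least 5 reads in each of the 9 seedling libraries, the median log2 ratio was 0.04.

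**Figure D1:**
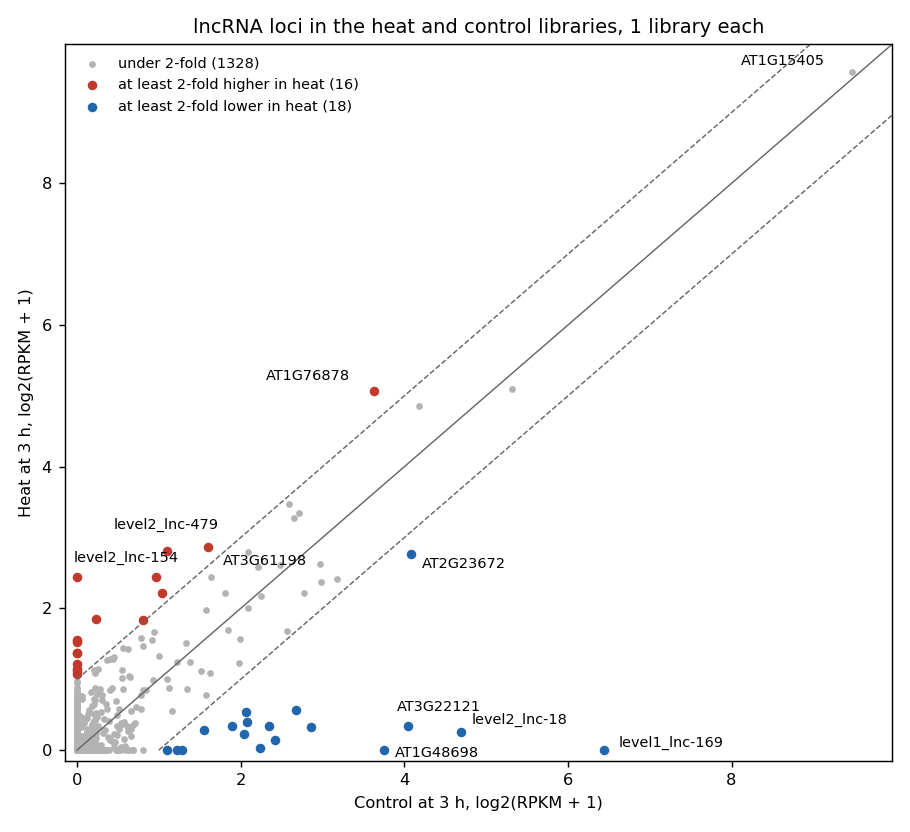
Each point is 1 of the 1362 lncRNA loci, with log2(RPKM + 1) in the control library on the horizontal axis and in the heat library at 3 h on the vertical axis; the solid line marks equal values and the dashed lines a 2-fold difference. The 18 lower loci (blue) reach further from the line than the 16 higher ones (red), and AT1G15405 lies near the line.

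Among the antisense RNAs, AT1G76878 was the most abundant that was higher. It lies at chr1:28866404-28867969 on the minus strand, opposite AT1G76880, which RefSeq describes as a duplicated homeodomain-like protein. The control held 451 reads (11.4 RPKM) and the 3 h heat library 1885 reads (32.5 RPKM). The ratio was 2.84 (2.56 to 3.16) and the log2 difference 1.43. After 12 h of heat 235 reads (4.37 RPKM) were left, and in the 6 libraries of cold, salt and drought 199 to 378 reads (4.15 to 7.58 RPKM). The control was therefore above every stress library except heat at 3 h, and the ratio of heat at 3 h to heat at 12 h was 7.44 (6.49 to 8.56). It made up 3.79% of the lncRNA reads of the control and 10.5% of those of heat at 3 h.

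The largest increase on the log2 scale, 2.45, was at level2_lnc-154, opposite CLV1, the receptor kinase that restrains stem cell number in the shoot meristem. No read was seen in the control and 16 reads (4.45 RPKM) after 3 h of heat, at least 3.63-fold higher against a floor of 3 reads. All 7 other seedling libraries were at 0. Its exons sum to 97 nt, less than the length of a read, and short exons raise RPKM per read. The sources used here do not say how a read longer than the exons was counted.

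Other loci opposite a coding gene also went from 0 control reads to their highest level of the 9 libraries at 3 h of heat. The RNA level1_lnc-320, opposite AT5G48480 of the glyoxalase I family, had 19 reads (1.58 RPKM), at least 4.31-fold higher, then 6 reads at 12 h and 0 to 2 in cold, salt and drought. The RNA level1_lnc-294, opposite AT5G35970, a P-loop nucleoside triphosphatase, had 13 reads (1.59 RPKM), at least 2.95-fold higher, and 0 in the 8 other libraries. Opposite AT1G70900, a gene of unknown product, level2_lnc-143 had 13 reads (1.10 RPKM), at least 2.95-fold higher, with 1 read at 12 h. The RNA level1_lnc-344, opposite LAC17, a laccase that takes part in lignin formation, had 10 reads (1.32 RPKM), at least 2.27-fold higher, and a single read in cold at 3 h. With 0 in the control and 10 to 19 reads in heat, the size of these increases is known only as a lower bound.

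Heat at 3 h was not the highest library at every antisense locus. The RNA level1_lnc-319, opposite TDT, the carrier of malate into the vacuole, had 8 control reads and 41 after 3 h of heat, with 35 at 12 h. The ratio was 3.48 (1.61 to 8.61). Its RPKM ranked 6 of 9 at 3 h of heat, with up to 94 reads in cold at 12 h; the control was the lowest library.

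Loci on the strand of a coding gene cannot be told apart from RNA of that gene by their reads. Of 121 such loci, 4 were higher (3.31%) and 1 lower (0.826%), against 1.17% and 1.32% of all loci. The most abundant was level2_lnc-479, inside AT4G30790, an autophagy gene also named ATG11. Its reads numbered 23 (1.15 RPKM) in the control, 177 (6.02 RPKM) after 3 h of heat and 208 after 12 h. The ratio at 3 h was 5.23 (3.38 to 8.47). The control was its lowest library and heat at 3 h ranked 4 of 9, with 1.42 to 9.74 RPKM in cold, salt and drought. The RNA level1_lnc-53, inside AT1G51570, went from 4 to 20 reads with 85 at 12 h. Heat at 3 h ranked 8 of 9 there, above the control alone, with 3.45 to 9.16 RPKM in cold, salt and drought. At level2_lnc-156, inside AT1G75945, reads went from 0 to 14 with 9 at 12 h. At level1_lnc-104, inside AT2G30740, 7 reads on 97 nt of exons against 0 left an interval that reached 1 (its lower end was 0.98). Counted without loci on the strand of a coding gene, an alternative chosen after seeing the data, 12 were higher and 17 lower.

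The remaining higher loci were of other kinds. For the small RNA precursor AT3G61198 the control gave 32 reads (2.04 RPKM), 3 h of heat 145 (6.29 RPKM) and 12 h of heat 117. The ratio was 3.08 (2.09 to 4.67); heat at 3 h was its highest library and salt at 3 h, with 4 reads, its lowest. The locus level1_lnc-211 overlaps the annotated snoRNA gene AT4G06240, and snoRNAs guide chemical modification of other RNAs. Its 8 control reads compare with 55 after 3 h of heat and 54 after 12 h, and the ratio was 4.67 (2.21 to 11.4). It had 2 to 16 reads in the 6 other stress libraries. The RNA level1_lnc-351 had 0 control reads, 15 after 3 h of heat and 24 after 12 h, and level1_lnc-82, 418 bp from PFD1, had 0, 9 and 1. The locus level2_lnc-187 went from 1 to 22 reads (an interval of 2.42 to 617 for the ratio). Its control value was the lowest of the 9 libraries and heat at 3 h ranked 6, with 1.67 to 6.23 RPKM in cold, salt and drought. It has 62 copies, itself included, of at least 95% identity over at least 90% of its span in the genome. Whether its reads could be placed among them was not tested.

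**Figure D2:**
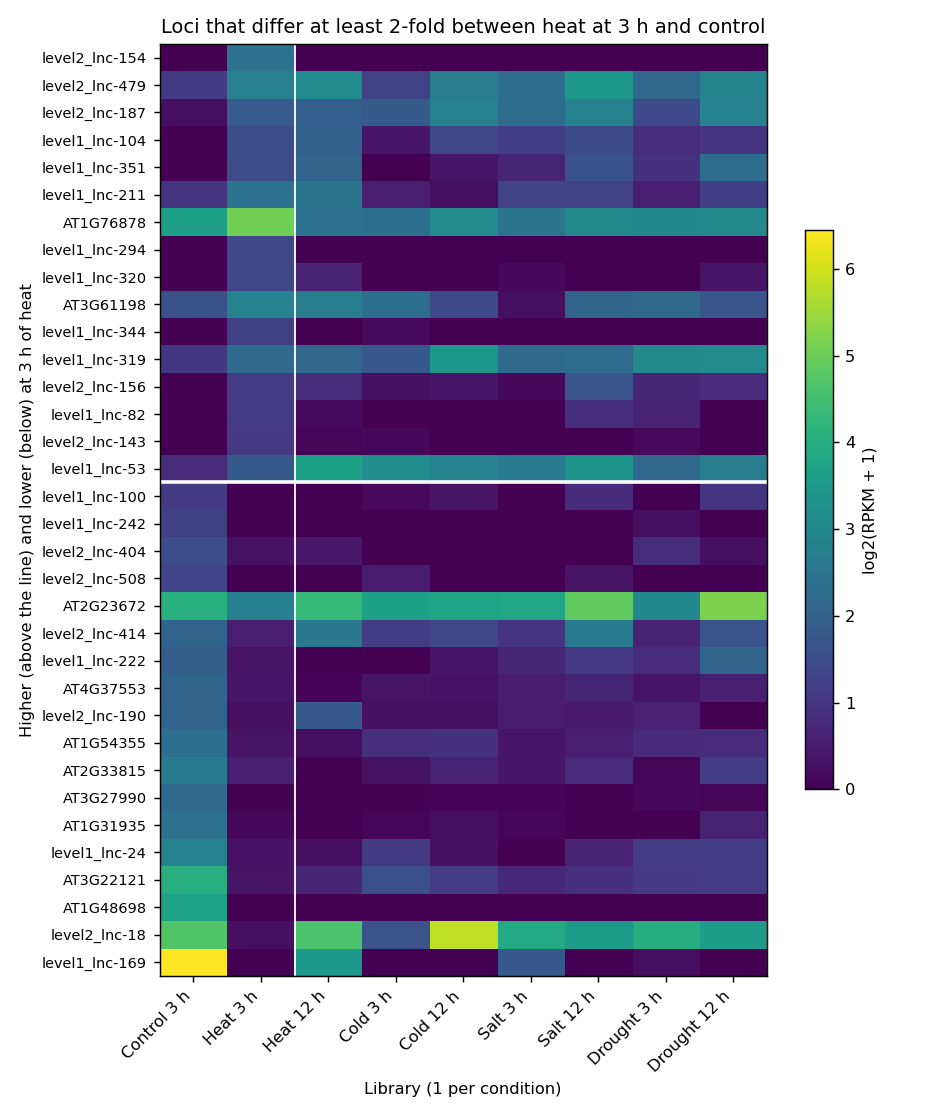
Rows are the 34 loci past 2-fold, ordered by their difference at 3 h, with the 16 higher above the white line and the 18 lower below it; columns are the 9 seedling libraries, 1 per condition, and colour is log2(RPKM + 1). The rows of level2_lnc-154 and level1_lnc-294 are above 0 in the heat library at 3 h alone, and in most rows below the line the control column is the brightest.

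Over all 16 higher loci, control reads ran from 0 to 451 with a median of 0, and 9 of them had no control read; heat reads ran from 7 to 1885 with a median of 17.5. Heat at 3 h was the highest of the 9 libraries in 8 of the 16, among them AT1G76878, AT3G61198 and level2_lnc-154, against 16 of the 148 loci with at least 10 reads in the compared pair. As the call uses the 3 h value, a high rank is partly fixed by it. The control was the lowest of the 9 libraries in 6 of the 16 (37.5%), against 45 of the 148 (30.4%). Of the 67 loci with an interval above 1, it was the lowest in 29 (43.3%). For these loci a high value in heat and a low value in the single control library cannot be told apart. RPKM was above that of heat at 12 h in 10 of the 16 and below it in 6.

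On the log2(RPKM + 1) scale the largest decreases exceeded the largest increases. With 0 reads in the control at 9 of the 16 higher loci and in heat at 5 of the 18 lower ones, those ratios are only bounded. In most of the decreases the control library stood apart from all the stress libraries. The control was the highest of the 9 libraries in 14 of the 18 lower loci (77.8%), against 22 of 148 loci with at least 10 reads (14.9%), and heat at 3 h was the lowest in 4. For these 14 a low value in heat and a high value in the single control library cannot be told apart. The clearest case is AT1G48698, opposite AT1G48700, an oxygenase gene: 111 reads (12.4 RPKM) in the control and 0 in each of the 8 stress libraries, at least 54.4-fold lower at 3 h of heat.

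The largest decrease, −6.44 on the log2 scale, was at level1_lnc-169, where the control had 485 reads (86.0 RPKM) and heat at 3 h none, at least 238-fold lower. At 12 h of heat 76 reads were present, and the other stress libraries held 0 to 17. As its printed sequence shows, 160 of its 224 bases, from base 59 to base 218, are 1 unbroken run of alternating G and A. The 5 chromosomes hold 27 such runs of at least 100 nt on either strand, and a read inside one has no base that places it in this locus. The locus also overlaps the transcribed pseudogene AT3G31161 on its strand.

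The next largest decreases were at loci with a single copy by the identity rule above, a rule that also gives level1_lnc-169 a single copy. The RNA level2_lnc-18, opposite the defensin-like gene AT1G13609, went from 169 reads (24.8 RPKM) in the control to 2 (0.200 RPKM) in heat at 3 h, 124-fold lower (33.9 to 1035). It had 219 reads at 12 h of heat and 19 to 478 in the 6 other stress libraries, so heat at 3 h was the lowest library and the control was not the highest. The RNA AT3G22121, opposite CWLP, which encodes a linker of cell wall and plasma membrane, gave 273 control reads, 7 after 3 h of heat and 15 after 12 h. It was 57.4-fold lower at 3 h (27.5 to 144), and heat at 3 h was again the lowest library, though all 8 stress libraries were at 7 to 45 reads.

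Further antisense RNAs were lower. The RNA AT2G33815 lies opposite SPL3, a transcription factor of the floral transition and target of miR156. Its 129 control reads compare with 17 after 3 h of heat and 1 after 12 h, 11.2-fold lower at the earlier time (6.71 to 19.7). Opposite ABCD2, an ABC transporter gene, AT1G54355 went from 127 reads to 12, 15.6-fold lower (8.61 to 30.9), with 8 reads at 12 h. Opposite a pair of formamidase-like genes, AT4G37553 had 63 control reads and 9 heat reads at 3 h, and 1 at 12 h; the ratio was 0.0971 (0.0425 to 0.196). All of these had their highest value in the control, and the libraries of cold, salt and drought held 2 to 36 reads for them.

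The lncRNAs that the study classed as derived from transposable elements moved in 1 direction by the 2-fold rule. Of 177 such loci, 0 were higher and 6 lower (3.39%), against 1.17% and 1.32% of all loci. By the counting interval 3 lay above 1 (1.69%) and 9 below (5.08%), against 4.92% and 2.94%. In 5 of the 6 lower loci, all but AT2G23672, the single control library was the highest of the 9, so there too a low heat value and a high control value cannot be told apart. Among the 12 of them with at least 10 reads the median log2 difference was −0.78, with 9 negative, against 0.16 over all 148 loci with at least 10 reads. The class as a whole held 1135 reads in the control and 590 in heat at 3 h, or 45.1 and 15.9 per M (mega) mapped reads. The 6 lower loci held 31.4 and 4.75 of these per M, and the other 171 loci 13.6 and 11.2.

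Of the 6, 5 lie opposite a coding gene. Besides AT3G22121 they are AT3G27990, from 143 reads to 1 (210.3-fold lower, 37.1 to 8364), level1_lnc-24, opposite the RNA polymerase I initiation factor gene AT1G30590 and down from 51 reads to 3, and level1_lnc-100, from 7 to 0. At level2_lnc-190, on the strand of AT2G11225, 12 reads became 1 and stood at 13 at 12 h. The sixth, AT2G23672, opposite a homologue of the cyanobacterial YCF37 gene, showed 306 control reads, 164 after 3 h of heat and 498 after 12 h. Its ratio at 3 h was 0.36 (0.30 to 0.44), and heat at 3 h was the lowest of its 9 libraries by RPKM.

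**Figure D3:**
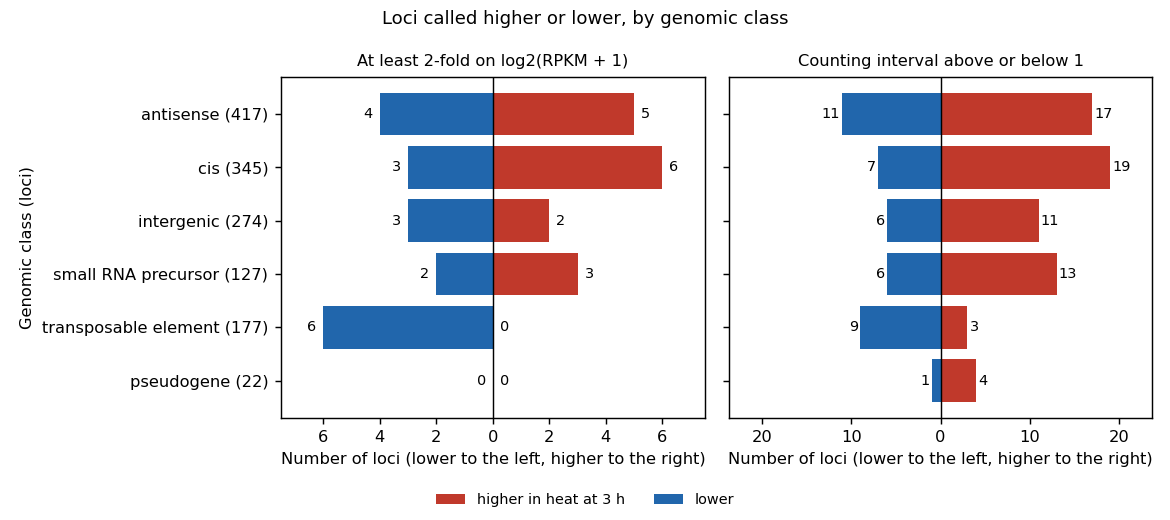
Bars give the number of loci called higher (red, to the right) and lower (blue, to the left) in heat at 3 h for each genomic class of the study, by the 2-fold rule (left panel) and by the counting interval (right panel); the class sizes stand in brackets. Transposable element loci show 0 higher and 6 lower by the 2-fold rule, while the antisense and cis classes show both directions.

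The other genomic classes and the polyadenylation classes held calls in both directions or none, to be read against 1.17% higher and 1.32% lower over all loci. A single direction was also seen at the loci bound by PIF4 or PIF5, given below, and at annotated loci marked as conserved in structure. Of these 107 annotated loci 0 were higher and 3 lower (2.8%), against 0.521% and 2.08% of all annotated loci. By the counting interval 13 of them lay above 1 and 7 below. Antisense loci (417) had 5 higher (1.20%) and 4 lower (0.959%), shares near those of all loci. Cis loci (345) had 6 (1.74%) and 3 (0.870%), intergenic loci (274) 2 (0.730%) and 3 (1.09%), and small RNA precursors (127) 3 (2.36%) and 2 (1.57%). Pseudogene loci (22) had 0 of either by the 2-fold rule, with 4 intervals above 1 and 1 below. The predicted loci that the study classed as bimorphic, found both with and without a poly(A) tail, had 6 higher (3.43%) and 4 lower (2.29%) of 175, the poly(A)+ class 3 and 3 of 256 (1.17% each), and the poly(A)- class 1 and 1 of 111 (0.901% each).

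The remaining lower loci were of several kinds. AT1G31935, 46 bp from AT1G31940, went from 58 reads to 2, 42.6-fold lower (11.3 to 361), and was at 0 at 12 h. The locus level2_lnc-414 went from 29 reads to 6 and stood at 61 at 12 h, but it has 18 near-identical copies in the genome, itself included. Control and heat reads were 7 and 1 at level1_lnc-222, 12 and 2 at level2_lnc-404, 8 and 0 at level2_lnc-508 and 7 and 0 at level1_lnc-242. These low counts sit close to what the reads can resolve.

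The rule's limit lies within a near-continuous range. Just inside it were level1_lnc-53 (log2 difference 1.02) and level2_lnc-143 (1.07), and just outside level2_lnc-74 (0.98, 0 and 8 reads) and level2_lnc-619 (0.95, 0 and 7 reads). On the lower side level1_lnc-100 (−1.10) and level1_lnc-242 (−1.23) were just inside, and GUT15 (−0.88) and AT3G61118 (−0.80, 7 and 0 reads) just outside.

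The counting interval adds abundant RNAs whose difference was smaller than 2-fold on the RPKM + 1 scale. GUT15 (AT2G18440), a noncoding RNA named for its unstable transcript, had 210 control reads (4.92 RPKM) and 139 heat reads (2.21 RPKM) at 3 h. Its ratio was 0.45 (0.36 to 0.56), with 84 reads at 12 h. The control was its highest library, with 1.07 to 2.78 RPKM in cold, salt and drought, and heat at 3 h ranked 3 of 9. For GUT15 too, a low value in heat and a high value in the single control library cannot be told apart. Of 6 named plant lncRNAs sought, 4 are in the catalogue, and the other 3 gave no comparison: DRIR had 0 and 2 reads, ASCO 1 and 0, and ELENA1 0 and 0.

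The next examples were chosen after their values were seen. AT4G36648, among the 5 loci with most heat reads, had 192 and 390 reads, a ratio of 1.38 (1.16 to 1.65), and heat at 3 h was its highest library. AT2G36792, opposite the glycosyltransferase gene UGT73C6, had 19 and 100 reads, a ratio of 3.58 (2.18 to 6.19). AT2G19572, opposite the cytidine deaminase gene CDA1, had 10 and 60, a ratio of 4.08 (2.07 to 8.94). The control was the lowest library of both AT2G36792 and AT2G19572, where heat at 3 h ranked 3 and 7 of 9. Cold, salt and drought held 0.63 to 3.84 and 1.33 to 3.28 RPKM for them. A high value in heat and a low value in the single control library cannot be told apart there. In the other direction AT2G31751, opposite UGT74D1, had 92 and 49 reads, a ratio of 0.36 (0.25 to 0.52), and AT1G05562, opposite UGT75B1, had 189 and 174, a ratio of 0.63 (0.51 to 0.77).

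**Figure D4:**
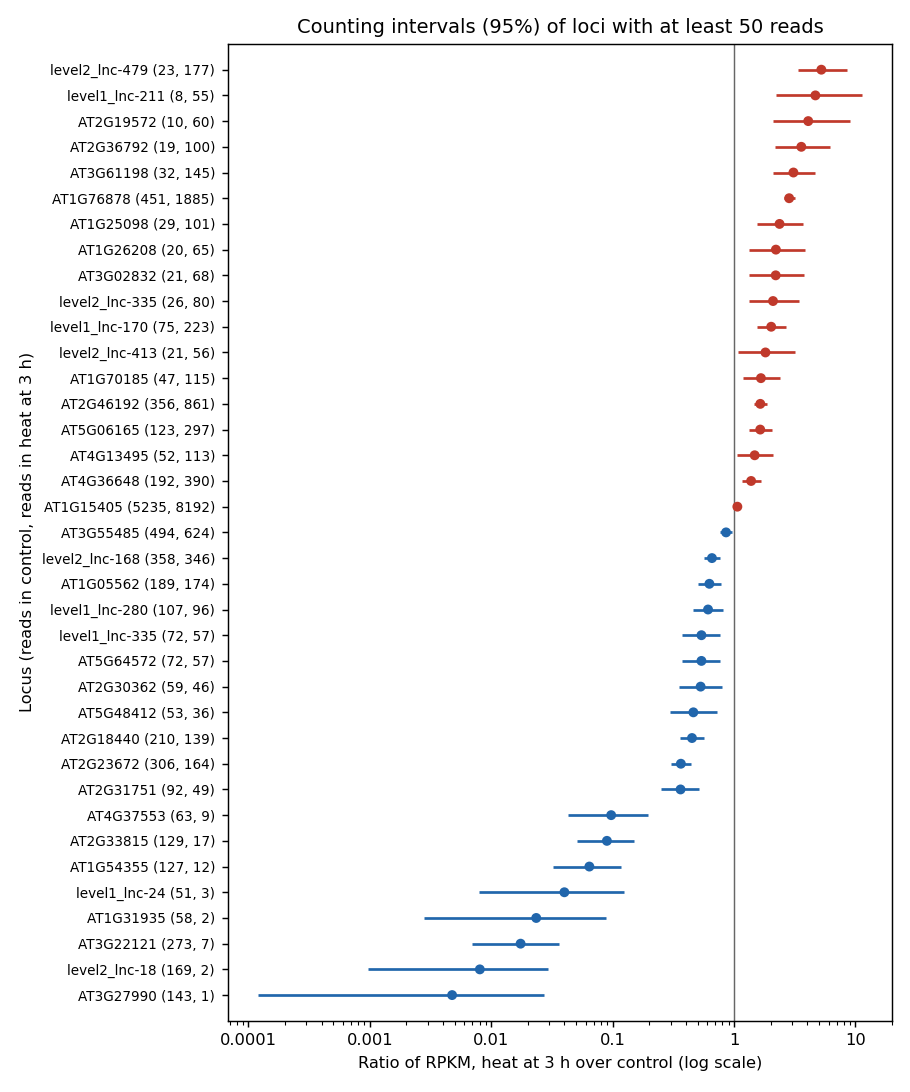
Points are the ratio of RPKM in heat at 3 h to the control (log axis) and lines its 95% counting interval, for the 37 loci whose interval leaves out 1 with at least 50 reads in both libraries together and reads in each; the reads in control and heat stand in brackets. Red marks the 18 loci above 1 and blue the 19 below 1, and the 2 lowest ratios rest on 1 heat read (AT3G27990) and 2 (level2_lnc-18).

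The snoRNA hosts, RNAs that contain annotated snoRNA genes, held no locus past 2-fold on log2(RPKM + 1), though ratios of RPKM without the added 1 passed 2 at AT3G02832 and AT1G18745. Of 11, 10 had reads in the pair, 4 had an interval above 1 (36.4%) and 1 below (9.09%). The shares were 4.92% and 2.94% of all loci and 8.85% and 6.51% of the annotated ones. An interval leaves out 1 only where reads are enough, and 9 of the 11 hosts had at least 10 in the pair. Of all 148 loci with at least 10 reads, 57 lay above 1 and 31 below, so the shares over all loci are a low baseline here. AT2G46192, which spans 4 whole snoRNA genes, gave 356 control reads (17.1 RPKM), 861 (28.1 RPKM) after 3 h of heat and 828 after 12 h. The ratio at 3 h was 1.64 (1.45 to 1.87). AT5G06165 had 123, 297 and 313 reads in the same order, with a ratio at 3 h of 1.64 (1.33 to 2.04), and AT3G02832 21, 68 and 70, with 2.20 (1.33 to 3.78). AT1G18745 had 2 and 13 reads, a ratio of 4.42 (1.00 to 40.3). The most abundant host, AT3G55485, went the other way, from 494 to 624 reads in the deeper library, a ratio of 0.86 (0.76 to 0.97). At AT2G43375 the 3 h value was close to the control, at 176 against 130 reads (0.92, 0.73 to 1.16), with 566 at 12 h, and AT5G15022 had 27, 48 and 152. The control is shared by the values at 3 h and 12 h. The only miRNA host with more than 1 read in either library, AT4G13495, had 52 and 113 reads, a ratio of 1.48 (1.05 to 2.09).

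Of the 107 loci that the study lists as bound by PIF4 or PIF5, transcription factors of the response to warmth and shade, 3 were higher (2.8%) and 0 lower. The shares over all loci were 1.17% and 1.32%. The 3 are AT1G76878, AT3G61198 and level2_lnc-479, described above. By the counting interval 9 bound loci lay above 1 (8.41%) and 2 below (1.87%). The shares were 4.92% and 2.94% of all loci and 8.85% and 6.51% of the annotated ones. Of all 148 loci with at least 10 reads, 57 lay above 1 and 31 below. Among the 19 bound loci with at least 10 reads the median log2 difference was 0.41, against 0.16 over all 148. A search for the G-box CACGTG, the core that these factors are known to bind, was chosen after seeing the data. It found the letters in the start window of 20.6% of the bound loci and 5.02% of the others, and in none of the 3. The bound class also holds AT1G15405, so its summed reads follow that RNA.

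The heat shock element as a pair of facing units, GAANNTTC or TTCNNGAA on either strand, stood in the start window of 18.4% of all 1362 loci, in 12.8% of those with at least 10 reads, in 1 of the 16 higher loci (6.25%) and in 1 of the 18 lower ones (5.56%). The higher one is level1_lnc-320, whose window is printed above, and the lower one level1_lnc-222. Extended by a further unit, the element was found at 6 of 1362 loci (0.441%) and at none of those called. The search covers letters in this window only.

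Genes of the heat response were searched for catalogued lncRNAs nearby. Of 34 such genes, chaperones, heat shock factors and early response genes, HSFA1E and DREB2A had a catalogued lncRNA within 1000 bp. The share over all coding genes was not computed. The neighbour of HSFA1E, a master activator of the response, was level2_lnc-270, 928 bp away, with 0 reads in both libraries. The neighbour of DREB2A, a transcription factor of heat and drought, was level2_lnc-504, 798 bp away, with 0 and 2 reads. Within 2000 bp, a wider distance than the 1000 bp set beforehand, there were 6 loci. The counting interval left out 1 only at those described next. Of these, level2_lnc-599, 1493 bp downstream of HSP90-1 on its strand and opposite AT5G52650, had 10 reads at 3 h of heat, 0 in the control and 0 at 12 h. It was at least 2.27-fold higher than the control, with up to 3 reads elsewhere. On the other hand AT5G59732, 1178 bp downstream of the small heat shock protein gene HSP18.2 on its strand, had 23 and 9 reads, a ratio of 0.27 (0.11 to 0.60), its lowest library of 9.

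The authors' deposited table lists 15 predicted poly(A)- loci as responding to heat, and 14 of them had 0 reads in the control. The table lists loci by stress, so it is not particular to 3 h. By the values used here 0 were higher and 1 lower (6.67%) at 3 h: level2_lnc-508, from 8 reads to 0. At 12 h of heat level2_lnc-595, level2_lnc-216 and level2_lnc-420 were past 2-fold higher by the same rule (log2 differences 1.56, 1.46 and 1.10). There level2_lnc-508 was again lower (−1.29). The most reads of any of the 15 was 4 at 3 h and 16 at 12 h, the latter at level2_lnc-595, which had 1 read at 3 h. The authors' deposited lists of poly(A)+ loci responding to heat, which rest on polyadenylated RNA, hold 38 annotated and 58 predicted loci. Of the 38, 0 were higher and 2 lower (5.26%) here, and of the 58, 1 was higher (1.72%) and 2 lower (3.45%). The shares over all 1362 loci, to be set beside each of the authors' lists here, were 1.17% and 1.32%. By the counting interval 9 of the 38 lay above 1 and 4 below, against 34 and 25 of all 384 annotated loci. Reads in the pair were found at 32 of the 38 and at 228 of the 384. Of the 58, 2 lay above and 4 below, against 33 and 15 of all 978 predicted loci. Of the 18 lncRNAs that the authors' deposited table assigns to the term response to heat, 0 passed 2-fold, and AT1G10682 (2 and 15 reads) and level1_lnc-162 (0 and 8) had an interval above 1.

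Exon length enters the calls through RPKM, so the lengths are a description only: the higher loci had a median exon length of 266 nt and the lower ones 338.5, against 491.5 for the 84 loci with at least 1 RPKM in either library. Among features that the calls did not use, the deposited score of H3K4me3, a histone mark of active promoters, had a median of 4.26 at the higher loci, 1.71 at the lower ones and 5.15 at those 84. That of H3K27me3, a mark of repressed genes, was 0.958, 1.95 and 1.34. By the counting interval the H3K4me3 order was the other way round, at 5.42 for loci above 1 and 5.93 for those below. For H3K27me3 those medians were 1.48 and 1.72, in the same order as by the 2-fold rule but closer together. The H3K4me3 order thus depends on the call rule, and the H3K27me3 order does not. The sources used here do not name the plants or conditions behind these scores.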

How the data were processed

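Values were used from the study's tables of annotated and predicted lncRNAs. The authors computed RPKM per locus and library, per the file headers; the submitters' processing notes name TAIR10, Cufflinks, TopHat2 2.0.8 and Bowtie 0.12.9, and the sources used here do not state the counting rule. The histone scores, blastn bit scores (a score of DNA conservation) and randfold p-values were used or left aside as deposited by the authors, as were genomic, polyadenylation and binding classes; 24 columns of per-sample values that match no sample were not used. Deposited starts count from 0 and were raised by 1.

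RPKM times exon length gave whole reads, within 0.02 reads, for 2790 of 2790 non-zero predicted values. Annotated values stand in another order than their loci: 79 of 1922 were whole as deposited, and 1922 of 1922 once given to loci sorted by the number after G of the identifier, as used here. All 384 annotated loci overlap their RefSeq gene on the same strand. Intervals are exact binomial ones at 95%, and a fold against 0 reads uses a floor of 3 reads per library; both cover counting error only, and reads without molecular identifiers are not independent molecules. Copies were counted with blastn 2.17.0. Other steps used Python 3.11.15, pandas 2.3.3, numpy 2.4.6 and scipy 1.17.1, were tested on simulated data, and figures used matplotlib 3.10.9.

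The named loci were the 12 largest differences in each direction among those past 2-fold and those highest in heat at 3 h. By rule the 5 with most heat reads and neighbours of heat genes within 1000 bp were also named. So were 6 known lncRNAs, loci the authors list for heat and those beside the threshold. Named outside these rules were the remaining loci past 2-fold, hosts of snoRNAs and miRNAs, and heat gene neighbours out to 2000 bp. Further examples are said to be chosen after seeing values. Members and lists were chosen with earlier results of these data known. Alternatives were other pseudocounts, thresholds, scalings, read minimums and intervals.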

Additional observations from a re-analysis of the deposited data

Results flagged for a closer look

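AT1G76878 differed from the control in opposite directions at the 2 times of heat: its log2 difference was 1.43 at 3 h and −1.21 at 12 h. Each time is 1 library, both are compared with the same control, and the difference between the times was not tested across replicates. The reads behind it were 451 in the control, 1885 at 3 h and 235 at 12 h.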

How the results depend on the processing

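The number of loci called rests on the pseudocount. With 0.1 RPKM in place of 1, 176 loci were higher and 79 lower, and with 0.5 RPKM 56 and 25. The share of higher loci among those called moved from 47.1% to 69.0% and 69.1%. The rule with 1 RPKM can call a locus lower only if its control value is at least 1 RPKM (55 loci). It can call a locus higher only if its value in heat at 3 h is at least 1 RPKM (62 loci). At 4-fold 1 locus was higher and 9 lower. With a 99% interval 40 loci lay above 1 and 35 below. The counts stayed within 1.5 times under a common rescaling (15 and 18; intervals 63 and 44), a minimum of 10 reads (14 and 14), scaling to lncRNA reads other than AT1G15405 (16 and 18) and the deposited order of annotated values (16 and 18, unchanged by construction, though other loci carry them). Alternatives chosen after seeing the data left out loci that overlap another catalogued lncRNA (16 and 18), exons shorter than a read (14 and 18) or loci on the strand of a coding gene (12 and 17), or asked for a ratio of at least 2-fold (60 and 33 intervals). For single named loci, 101 values kept direction and side of the threshold, and level1_lnc-53 dropped under 2-fold after rescaling. No paired analysis was possible because each condition is 1 library. Depth limits all loci with few reads: 180 of the 246 loci read in heat at 3 h only had 1 to 3 reads.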
